A study of Arabidopsis thaliana with 7 samples.

Results

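The transcripts of the chloroplast genome were compared between wild-type (WT) Arabidopsis thaliana seedlings and seedlings of the glk1 glk2 double mutant. They were taken as every row of the deposited expression table whose locus identifier begins with ATCG, which gave 88 rows of 27655. All libraries came from total RNA of Col-0 seedlings, 12 days old, kept at 16 °C in long days on half-strength MS medium and collected 4 h after lights on (ZT4). WT (Col-0) gave 3 libraries and the double mutant, also in Col-0, gave 4, and neither the alleles nor any pooling of plants is given in the sources used here. GLK1 and GLK2 encode transcription factors that act in the nucleus and promote chloroplast development. Values are TPM, the abundance of a transcript per unit length as a share of all transcripts of its library, scaled to a total of 1000000.

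The chloroplast genome is a small circular genome carried in many copies per plastid. It encodes core subunits of the photosystems, the cytochrome b6f complex, ATP synthase and the NDH complex, the large subunit of Rubisco, and part of the plastid ribosome and RNA polymerase. Most partners of these proteins are encoded in the nucleus. Its genes are read by a plastid-encoded polymerase, which needs nuclear sigma factors, and by a phage-type polymerase encoded in the nucleus, and many are transcribed together and cut into smaller RNAs.

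The table gives locus identifiers without gene names, and 6 of the 88 are given here with a gene name, through the RefSeq annotation of TAIR10.1. In 5 cases a note on a nuclear gene names the chloroplast identifier as its closest protein match, and in 1 case a nuclear pseudogene is described as derived from it. A translated alignment of each of those nuclear sequences to the chloroplast genome led to 1 gene in each case. The note on ATCG00430 calls its product photosystem II reaction center protein G, and the alignment led to the gene that RefSeq names ndhK. The other 82 rows are given by identifier or by counts, and a division of all rows by function was not made. The first 60 bases of the named genes are shown so that each identifier can be traced to its sequence. They are written 5′ to 3′ on the coding strand, with the start codon in capitals, from RefSeq TAIR10.1, where Pltd is the chloroplast genome.

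ndhK (ATCG00430), Pltd:49257-49934, minus strand: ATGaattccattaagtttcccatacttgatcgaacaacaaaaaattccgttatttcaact
ndhJ (ATCG00420), Pltd:48677-49153, minus strand: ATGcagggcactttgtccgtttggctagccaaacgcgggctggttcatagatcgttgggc
rpl20 (ATCG00660), Pltd:68512-68865, minus strand: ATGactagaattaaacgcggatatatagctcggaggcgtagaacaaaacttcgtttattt
clpP (ATCG00670), Pltd:69910-71882, minus strand: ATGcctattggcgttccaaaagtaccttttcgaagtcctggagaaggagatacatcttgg
cemA (ATCG00530), Pltd:60741-61430, plus strand: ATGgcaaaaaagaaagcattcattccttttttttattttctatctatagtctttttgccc
rpl2 (ATCG01310), Pltd:84337-85843, minus strand: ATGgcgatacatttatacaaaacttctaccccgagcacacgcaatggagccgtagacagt
rpl2, its copy, Pltd:152806-154312, plus strand: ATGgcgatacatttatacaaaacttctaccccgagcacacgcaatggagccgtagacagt

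The coordinates are those of each whole gene, and the bases shown are its first 60. The coding sequence of clpP lies in 3 parts and that of rpl2 in 2, so both genes hold introns, and the other named genes have 1 part. Both copies of rpl2 are identical over their whole length, and all 1458 stretches of 50 bases in one occur in the other. The identifier ATCG01310 can therefore not be assigned to one of them from these letters, and reads could have been split between copies, so its level is uncertain. For the other 5 named genes no stretch of 50 bases occurs elsewhere in the chloroplast, nuclear or mitochondrial sequences of TAIR10.1. In RefSeq, 12 of 85 chloroplast protein genes have an identical copy in the same genome, and the rows of such genes carry the same uncertainty. Where both copies have a row, the counts below hold both, and how often this occurs was not determined.

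Before any comparison the column of WT replicate 1 had to be set in order. Its values in all 88 chloroplast rows are displaced against the identifiers. As deposited, log2(TPM + 1) in that library had a correlation of r = -0.0882 over these rows with the mean of the other 6 libraries, and of r = 0.993 when its values were given to the identifiers in alphabetical order. Between pairs of the other 6 libraries r was 0.983 to 0.995. The correlations are across genes and describe the order of the rows only. WT replicate 1 was read in alphabetical order, and the main counts, with the values that moved most, are also given without it. The mean level of GLK1 was 191 ± 10.4 TPM (SD) over 3 WT and 51.7 ± 2.93 TPM (SD) over 4 mutant libraries, and that of GLK2 was 158 ± 2.85 and 50.6 ± 3.49 TPM, lower in every mutant library. Summed over 5 root marker genes (PYK10, TIP2;3, EXPA7, COBL9 and CASP1) the level was 1683 to 2135 TPM in the WT libraries. It was 1807 to 3041 TPM in the mutant libraries, with none of the 5 at 0. The leaf genes RBCS1A and CA1 summed to 21038 to 23847 TPM in the WT and 22112 to 24664 TPM in the mutant libraries. PYK10 and RBCS1A made up most of these sums, with WT means of 1856 and 20460 TPM. In the tests described below COBL9 was called higher in TPM only (log2 fold change 0.85, limma adjusted p = 0.0178), without overlap between groups. EXPA7 (0.69), CASP1 (0.56), PYK10 (0.21) and TIP2;3 (-0.47) were called with neither scaling. CA1 was called lower after TMM scaling only (-0.52, adjusted p = 0.0370), and RBCS1A was not called. The part of tissue composition in the results was not tested. In whole seedlings a change in the proportion of chloroplast-bearing cells and a change in plastid RNA per cell cannot be told apart.

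Chloroplast transcripts made up a small and similar share of TPM in both genotypes. It is a share of the listed values and not of the RNA of the seedlings, since capture of chloroplast RNAs by the libraries was not tested. The rows held 1.24%, 1.39% and 1.53% of TPM in WT replicates 1, 2 and 3, and 1.60%, 1.88%, 1.42% and 1.38% in mutant replicates 1 to 4. The means were 1.39% ± 0.145 (SD, n = 3) and 1.57% ± 0.23 (SD, n = 4), and the ranges overlapped. Mutant replicate 2 was the highest and WT replicate 1 the lowest. The difference of the means (mutant minus WT) was 0.183 percentage points, 0.110 without WT replicate 1 and 0.0782 without mutant replicate 2. The share was taken in TPM only. TMM scaling, described below, moves log2 differences between the genotypes by -0.363, so the sign of this difference is given for TPM alone. In WT 77 rows were listed above 0 in each library, and in the mutant 76 to 80. In all 7 libraries 74 rows were above 0, while 5 rows were listed at 0 in each of them.

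The rows spanned a wide range of levels. By their mean over the 7 libraries, 25 rows reached 100 TPM, 17 lay between 10 and 100, 28 between 1 and 10, and 18 under 1 TPM. The most abundant row, ATCG00470, read 4068, 4549 and 4752 TPM in the WT libraries and 4043, 6663, 3379 and 3759 TPM in the mutant libraries. The second, ATCG00480, read 1833, 2109 and 2376 TPM in the WT and 2566, 2624, 2356 and 2482 TPM in the mutant libraries. For both rows the groups overlapped, and the mutant libraries differed among themselves by more in the first than in the second. Together these rows held 46.6% to 47.9% of all chloroplast TPM in WT and 40.5% to 49.3% in the mutant. The named genes ranked from ndhK in place 5 to rpl20 in place 56. TPM is per unit length, so these ranks compare levels between genes, but how evenly the libraries capture chloroplast RNAs was not tested.

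**Figure D1:**
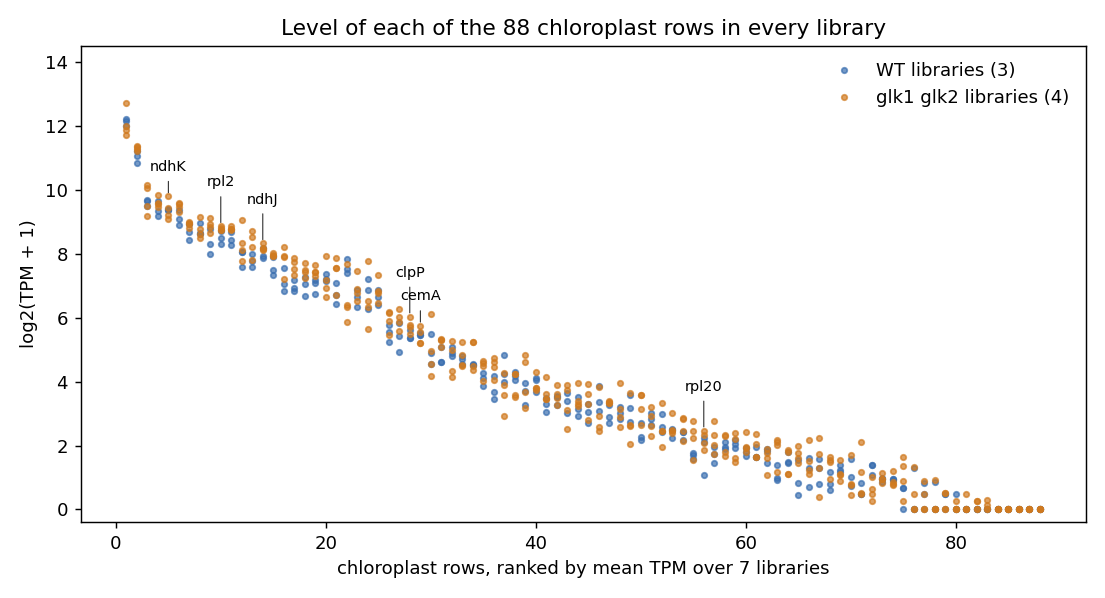
Each point is the level of a chloroplast row in 1 library, as log2(TPM + 1), with the 88 rows ordered by their mean over 7 libraries (blue for 3 WT, orange for 4 glk1 glk2 libraries). The named genes are marked, and the points of both genotypes lie together along the whole range, from about 4459 TPM on average for the top row to rows at 0.

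For the test across the whole table, 71 of the 88 rows passed a filter of at least 1 TPM in at least 3 libraries. The 17 rows under the filter reached a mean of at most 0.993 TPM and were not tested. Groups were compared on log2(TPM + 1) with limma, with p adjusted by Benjamini-Hochberg over all 19127 tested genes and a threshold of 0.05. In TPM the median log2 fold change (glk1 glk2 minus WT) of all tested genes was 0.33, a shift common to most of the table, and after scaling by trimmed mean of M values (TMM) it was 0.011. TMM scaling moved the difference between genotypes by -0.363 (log2) for every gene alike, by less at low levels because of the added 1, so a TPM log2 fold change between 0 and that size turns negative by construction. Below, "rose" and "fell" are used only where TPM and TMM scaling both gave a call in the same direction.

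With both scalings 0 of the 71 chloroplast rows rose and 1 fell, where 3.22% and 2.53% of all tested genes did. Chloroplast rows varied more within groups than most genes, as given below. At a larger spread a change of the same size is called, and leaves groups without overlap, less often. The part of spread in these counts was not tested. In TPM alone 19 rows (26.8%) were called higher, against 63.0% of all tested genes, and 2 (2.82%) were called lower, against 2.56%. Of the rows called higher, ATCG00180, ATCG00760 and ATCG01060 passed the filter mainly through the mutant libraries, where they were higher. Each of them reached 1 TPM in only 1 WT library. After TMM scaling 0 of the 71 rows were called higher and 1 (1.41%) lower, against 3.22% and 5.02% of all tested genes. Without WT replicate 1, WT replicate 2 or mutant replicate 1, the TPM count called higher was 4, 8 and 11, against 54.7%, 52.2% and 56.1% of all tested genes, and the count called lower was 1, 1 and 4, against 2.08%, 1.97% and 2.33%. The unadjusted limma p was under 0.05 for 26 rows (36.6%) in TPM, against 70.0% of all tested genes, and for 8 (11.3%) after TMM scaling, against 24.5%. The median log2 fold change of the 71 rows was 0.23 in TPM and -0.075 after TMM scaling. Values of WT and mutant libraries did not overlap in 7 rows that were higher and 1 that was lower in TPM, against 62.8% and 2.54% of all tested genes. After TMM scaling the counts were 0 and 4, against 12.0% and 11.8% of all tested genes. Without WT replicate 1 these counts were 7 and 1 in TPM, against 68.0% and 2.89%, and 0 and 6 after TMM scaling, against 15.5% in each direction.

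The row that fell was ATCG00050. It had 1.64, 1.65 and 1.13 TPM in the WT libraries and 0.39, 0.57, 0.20 and 1.03 TPM in the mutant libraries. All mutant values lay under all WT values, at levels close to the filter. The row passed the filter through the WT libraries, where it was higher, since only mutant replicate 4 reached 1 TPM. Its log2 fold change was -0.70 ± 0.19 (SE, limma adjusted p = 0.0112) in TPM and -0.87 ± 0.18 (adjusted p = 0.0219) after TMM scaling. The call with both scalings was lost without WT replicate 1, without WT replicate 2 and without mutant replicate 1, when 0, 0 and 2 rows fell, against 1.98%, 1.87% and 2.27% of all tested genes, and those 2 rows were others. The other row called lower in TPM, ATCG00330, had 226, 182 and 168 TPM in the WT and 79.2, 205, 57.6 and 82.9 TPM in the mutant libraries. Mutant replicate 2 lay within the WT range and the other mutant libraries under it. Its log2 fold change was -1.01 ± 0.36 (SE, limma adjusted p = 0.0329) in TPM and -1.37 ± 0.38 (adjusted p = 0.0630) after TMM scaling. The TPM call of ATCG00330 was lost when any 1 library other than mutant replicate 2 was left out (adjusted p between 0.0554 and 0.0993).

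The NDH complex of the thylakoid passes electrons from ferredoxin back to the plastoquinone pool and takes part in cyclic electron flow around photosystem I. Its subunit gene ndhK had 677, 654 and 666 TPM in the WT libraries and 690, 887, 539 and 592 TPM in the mutant libraries. The WT libraries agreed closely and the mutant libraries lay on both sides of them. The log2 fold change of ndhK was -0.0014 ± 0.15 (SE, limma adjusted p = 0.994) in TPM and -0.36 ± 0.17 (adjusted p = 0.241) after TMM scaling. The neighbouring gene ndhJ, on the same strand, had 240, 233 and 290 TPM in the WT and 320, 280, 289 and 277 TPM in the mutant libraries. The groups overlapped through WT replicate 3. The log2 fold change of ndhJ was 0.20 ± 0.089 (SE, adjusted p = 0.0752) in TPM and -0.16 ± 0.099 (adjusted p = 0.358) after TMM scaling. Without WT replicate 3 ndhJ was called higher in TPM (log2 fold change 0.30, adjusted p = 0.0157). In every library ndhK was listed at a higher TPM than ndhJ.

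The genes rpl2 and rpl20 encode proteins of the large subunit of the plastid ribosome. The level of rpl2 was 313, 358 and 418 TPM in the WT and 445, 464, 424 and 427 TPM in the mutant libraries. The groups did not overlap in TPM, and the highest WT library was close to the lowest mutant library. Its log2 fold change was 0.29 ± 0.094 (SE, limma adjusted p = 0.0248) in TPM, where the median of all tested genes was 0.33, and -0.075 ± 0.11 (adjusted p = 0.717) after TMM scaling. That call was lost when replicate 1 or 2 of either genotype was left out (limma adjusted p between 0.0544 and 0.0920). The gene rpl20 had only 1.11, 3.73 and 3.31 TPM in the WT and 4.53, 3.99, 3.23 and 2.65 TPM in the mutant libraries, with overlapping groups. Its log2 fold change was 0.37 ± 0.27 (SE, adjusted p = 0.243) in TPM and 0.11 ± 0.29 (adjusted p = 0.848) after TMM scaling. The TPM value rested on the low WT replicate 1 and was 0.0090 (adjusted p = 0.966) without it.

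The remaining named genes serve neither the ribosome nor the NDH complex. The gene clpP encodes a proteolytic subunit of the Clp protease of the stroma. It had 40.3, 40.4 and 48.0 TPM in the WT libraries and 64.5, 53.2, 51.2 and 44.2 TPM in the mutant libraries, where only mutant replicate 4 lay within the WT range. The log2 fold change of clpP was 0.30 ± 0.12 (SE, limma adjusted p = 0.0540) in TPM and -0.056 ± 0.13 (adjusted p = 0.827) after TMM scaling. It was called higher in TPM without WT replicate 3 (0.38, adjusted p = 0.0395) and without mutant replicate 4 (0.38, adjusted p = 0.0142), and not in the other fits that left out 1 library. The gene cemA, for a protein of the chloroplast envelope membrane, had 44.6, 43.3 and 42.6 TPM in the WT and 45.4, 52.7, 36.1 and 35.7 TPM in the mutant libraries. Its mutant libraries lay on both sides of the WT range, 2 above and 2 below. The log2 fold change of cemA was -0.053 ± 0.13 (SE, adjusted p = 0.725) in TPM and -0.41 ± 0.15 (adjusted p = 0.133) after TMM scaling.

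**Figure D2:**
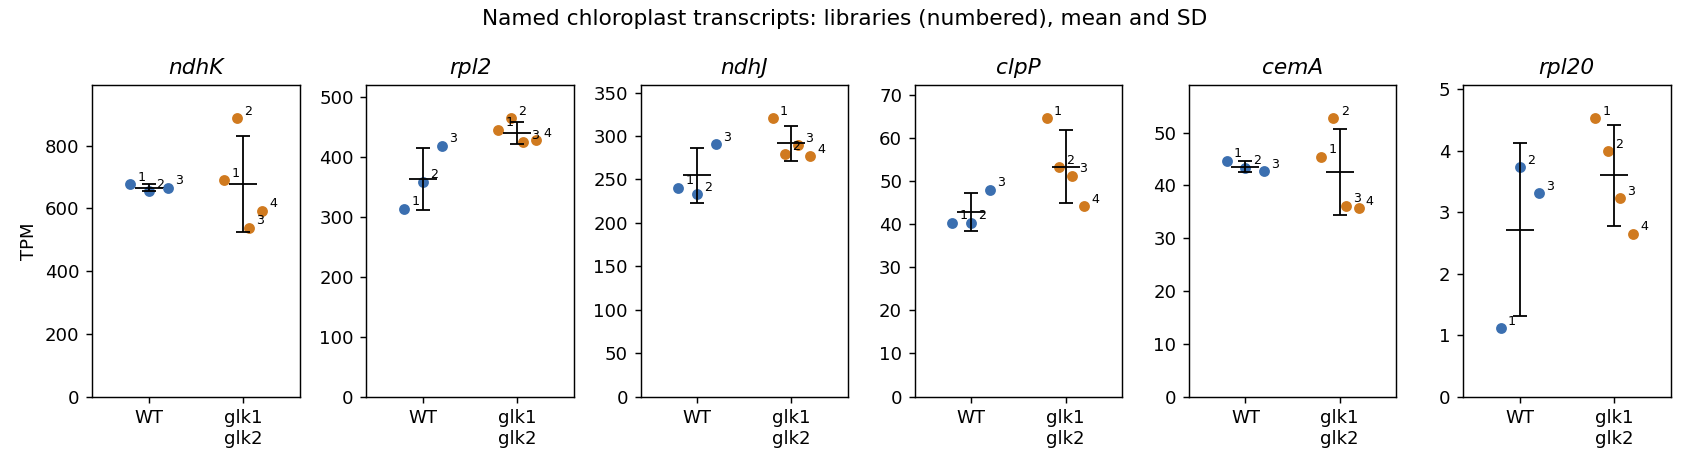
TPM of the 6 named chloroplast genes in each library (points, numbered by replicate), with the mean and SD of 3 WT and 4 glk1 glk2 libraries. Mutant replicate 2 is the highest mutant library for ndhK, at 887 TPM against 539 to 690 TPM in the others, and also for cemA and rpl2.

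The highest log2 fold changes among the rows called in TPM were those of ATCG01100 and ATCG00180, and neither was called after TMM scaling. ATCG01100 had 3.51, 3.82 and 5.50 TPM in the WT and 10.97, 5.30, 11.09 and 7.84 TPM in the mutant libraries. Its log2 fold change was 0.86 ± 0.23 (SE, limma adjusted p = 0.0108) in TPM and 0.56 ± 0.22 (adjusted p = 0.168) after TMM scaling. ATCG00180 had 0.98, 0.88 and 1.61 TPM in the WT and 3.30, 1.23, 3.03 and 3.55 TPM in the mutant libraries. The row passed the filter mainly through the mutant libraries, where it was higher. Of the WT libraries only replicate 3 reached 1 TPM. Its log2 fold change was 0.77 ± 0.25 (SE, limma adjusted p = 0.0232) in TPM and 0.54 ± 0.24 (adjusted p = 0.203) after TMM scaling. The TPM call of ATCG00180 was lost when WT replicate 1 or 2, or mutant replicate 1, was left out (adjusted p between 0.0585 and 0.0800). In both rows, as in ATCG00330, mutant replicate 2 lay within the WT range and the other 3 mutant libraries outside it.

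Libraries of the same genotype differed more in chloroplast rows than in most of the table. The median SD of log2(TPM + 1) within WT was 0.241 over the 71 rows and 0.0898 over all 19127 tested genes, and within the mutant it was 0.347 and 0.132. Without WT replicate 1 the WT medians were 0.176 and 0.0689. Among genes with a mean of at least 10 TPM, 42 of them in the chloroplast genome, the medians were 0.225 and 0.0739 in WT and 0.308 and 0.112 in the mutant. These differences in spread were not tested. WT replicate 1 was the lowest of all 7 libraries in 35 of the 71 rows, and mutant replicate 1 the highest in 29. The median difference from the WT mean over the 71 rows was 0.49, 0.27, 0.12 and 0.024 (log2) in mutant replicates 1 to 4, where over all tested genes it was 0.33, 0.27, 0.38 and 0.34.

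Each row was also taken as a share of the chloroplast total of its library, which does not depend on the level of nuclear transcripts. ATCG00470 held 32.8%, 32.7% and 31.1% of that total in WT and 25.3%, 35.4%, 23.8% and 27.2% in the mutant. Mutant replicates 1, 3 and 4 lay under all WT libraries and mutant replicate 2 above them. The share of ndhK was 4.84% ± 0.566 (SD, n = 3) over the WT and 4.28% ± 0.372 (SD, n = 4) over the mutant libraries, and that of clpP was 0.310% ± 0.0174 and 0.342% ± 0.0526, with overlap in each. Over the 71 rows, shares did not overlap between the genotypes in 2 rows that were higher (2.82%) and 3 that were lower (4.23%) in the mutant. ATCG00330 was among the latter, with 1.41% ± 0.373 (SD, n = 3) over the WT and 0.648% ± 0.305 (SD, n = 4) over the mutant libraries.

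**Figure D3:**
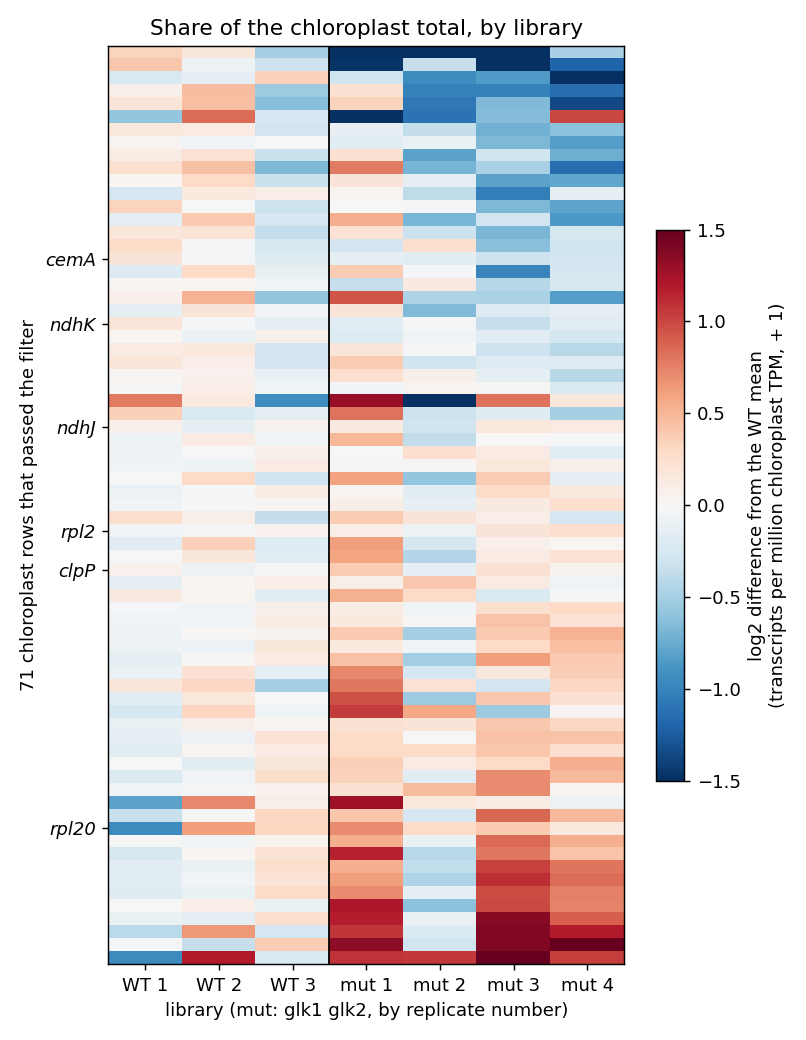
Each line is 1 of the 71 tested chloroplast rows and each column a library, coloured by the log2 difference of its share of the chloroplast total from the WT mean, with rows ordered by their mean in the mutant. Mutant replicates 1, 3 and 4 are red in many of the lowest lines, while mutant replicate 2 is closer to WT in most of them.

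Mutant replicate 2 lay closer to WT than the other mutant libraries in several of the rows described above, while its median difference from WT over all 71 rows, 0.27, lay between those of the other mutant libraries. Counts without it are given as a description only, because the library was singled out from values of the same rows, and rows in which it went against the other mutant libraries can gain from leaving it out. With both scalings 1 row then rose, against 3.51% of all tested genes, and 2 fell, against 2.40%. In TPM 20 rows were higher and 2 lower, against 62.8% and 2.43% of all tested genes. After TMM scaling 1 row was called higher, against 3.51%, and 7 rows (9.86%) were called lower, against 5.14%, among them ndhK with a log2 fold change of -0.52 and cemA with -0.54. The labels hold nothing that sets mutant replicate 2 apart.

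The nuclear genes for partners of the chloroplast-encoded proteins were set beside these rows, from lists drawn up with earlier results known. All 12 nuclear genes of photosystem I fell, as did 10 of 11 of photosystem II, where 2.53% of all tested genes fell. The remaining gene, NPQ4, was called higher in TPM (log2 fold change 0.30, limma adjusted p = 0.00854), as were 63.0% of all tested genes. After TMM scaling NPQ4 was not called (-0.066, limma adjusted p = 0.706). The median log2 fold changes of both photosystem lists in TPM were -1.21 and -0.70. PSAE-2, a stromal subunit of photosystem I, had 1422 ± 36.4 TPM (SD, n = 3) over the WT and 377 ± 32.0 TPM (SD, n = 4) over the mutant libraries. Of 3 nuclear genes of the ATP synthase 2 fell, ATPC1 and ATPD, against 2.53% of all tested genes, with a list median of -0.17. Of 4 for the small subunit of Rubisco RBCS3B fell, against the same 2.53%, with a median of 0.038. Neither of the 2 genes of the cytochrome b6f complex fell, with a median of -0.096, and PETC was called lower after TMM scaling only. Of 17 nuclear genes of the NDH complex 4 fell and 0 rose, against 2.53% and 3.22% of all tested genes. In TPM 6 of the 17 were called higher, against 63.0%. NdhS, which binds ferredoxin, fell from 328 ± 3.62 to 257 ± 17.0 TPM, and the list median was 0.072 in TPM and -0.29 after TMM scaling. The chloroplast-encoded ndhJ and ndhK did not pass the test with either scaling. Of 19 nuclear genes for plastid ribosomal proteins 0 rose and 0 fell, with medians of 0.065 in TPM and -0.30 after TMM scaling. Limma called 0 of them in TPM, where 63.0% of all tested genes were higher and 2.56% lower. After TMM scaling it called 2 lower, against 5.02%. The unadjusted limma p was under 0.05 for 1 gene in TPM and 17 after TMM scaling (5.26% and 89.5%, against 70.0% and 24.5% of all tested genes). Among 8 genes for sigma factors and phage-type polymerases SIGA fell, from 100 ± 3.95 to 83.8 ± 6.92 TPM, and 0 rose. Of all tested genes 2.53% fell and 3.22% rose. In TPM 5 of the 8 were called higher, against 63.0% of all tested genes. SCA3, for the plastid phage-type polymerase, had means of 3.52 ± 0.468 TPM (SD, WT) and 6.26 ± 1.08 TPM (SD, mutant), with a limma adjusted p of 0.00306 in TPM and 0.103 after TMM scaling. Of 12 genes for polymerase-associated proteins limma called 10 higher in TPM, against 63.0% of all tested genes, and 0 in either direction after TMM scaling, where 2 (16.7%) had an unadjusted p under 0.05, against 24.5%. Differences between these lists and the chloroplast rows were not tested.

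**Figure D4:**
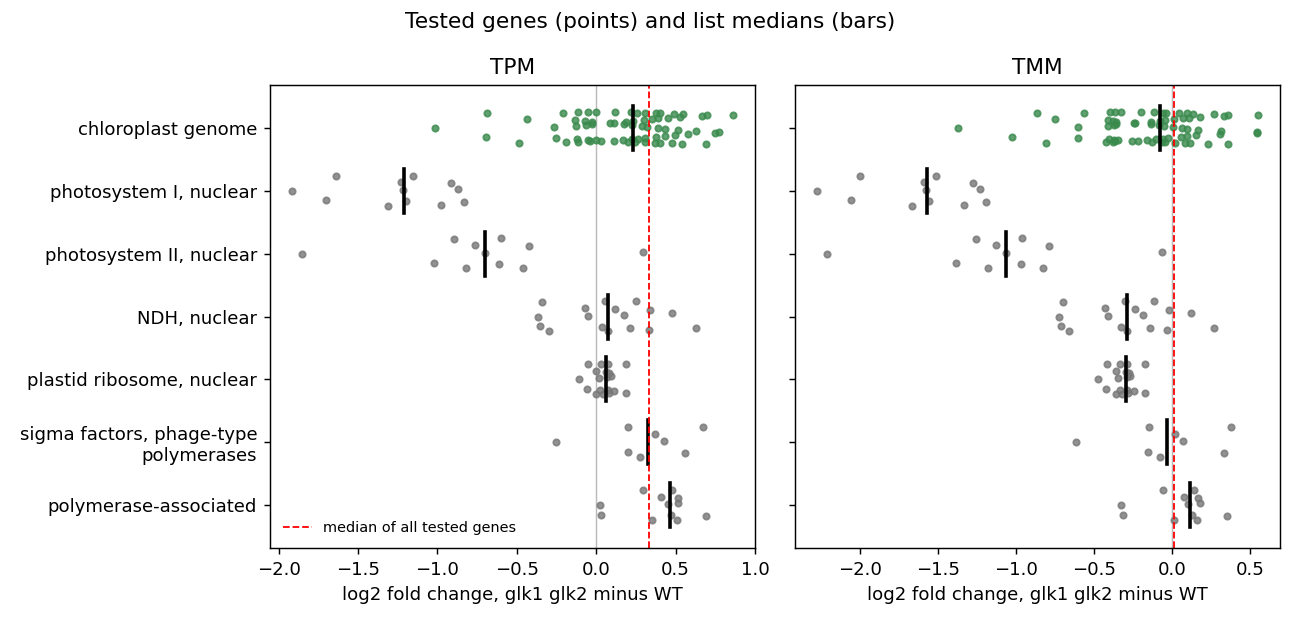
Log2 fold changes (glk1 glk2 minus WT) of tested genes, in TPM on the left and after TMM scaling on the right, for the 71 chloroplast rows (green) and for nuclear lists (grey), with list medians as bars and the median of all tested genes as a dashed line. The chloroplast rows have a median of 0.23 in TPM against -1.21 for nuclear photosystem I genes.

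The 122 rows of the mitochondrial genome, the other organelle, held 0.0050% to 0.0053% of TPM in WT and 0.0058% to 0.0068% in the mutant, far less than the chloroplast rows. Only 12 of them passed the filter, and with both scalings 0 rose and 0 fell, against 3.22% and 2.53% of all tested genes. Limma called 2 of these mitochondrial rows higher in TPM and 0 after TMM scaling, against 63.0% and 3.22% of all tested genes. The unadjusted p was under 0.05 for 3 and 2 of the 12, against 70.0% and 24.5%.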

How the data were processed

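The authors deposited 1 table of TPM values with 1 column per library. Per the submitters' processing notes, TopHat2, Cufflinks and the build TAIR10 were used, with no versions named. Strand setting and the treatment of multiply mapped reads: not given in the sources used here. TPM keeps no read depth, so the depth behind each value is unknown and no counting interval is given. Separate plantings for the replicates are not stated, and the spread that the p-values rest on may therefore be technical.

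Digit-group commas were removed, and WT replicate 1 was read in alphabetical order of the identifiers. Values were fitted as log2(TPM + 1) with limma 3.58.1 in R 4.3.3 (mean-variance trend, two-sided), which understates changes of low genes. TMM factors were computed on the TPM table (trims of 30% of log ratios and 5% of levels). Identifiers were tied to genes with tblastx of BLAST 2.17.0. The fits were tested on simulated data with few changed genes, in both directions, and no shift common to the table. The data hold such a shift in TPM, so the simulation does not test calls under it. The members and lists were chosen with earlier results of these data known. The rule for named rows asked for the most abundant rows of each functional group, all rows called with both scalings, the largest changes each way and a list of symbols. Because the sources used here name few rows, the text gives 6 named rows (1 further row is not reported here), the row called with both scalings, the largest changes called in TPM (2 each way) and the 2 most abundant rows. Grouping by function or promoter class was not used. Alternatives changed the pseudocount, filter, scaling, row order and libraries.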

Additional observations from a re-analysis of the deposited data

How the results depend on the processing

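The count of chloroplast rows called higher in TPM was 19. It was 2 with quantile normalization (3.98% of all tested genes), 0 after TMM scaling (3.22%), 0 with WT replicate 1 as deposited (47.7%), 6 with its displaced rows missing (61.4%), and between 4 and 22 with 1 library left out (52.2% to 62.8%). It stayed within 1.5 times the value with a pseudocount of 0.1 and without a filter. The count called lower was 2. It was 1 without a filter (2.22%), 1 with quantile normalization (4.82%), 1 after TMM scaling (5.02%), 0 with WT replicate 1 as deposited (1.84%), and between 1 and 4 with 1 library left out (1.97% to 3.03%). The number that rose, 0, was between 0 and 1 with 1 library left out (0.887% to 4.03%). The number that fell, 1, was between 0 and 2 (1.87% to 3.01%), and 0 with WT replicate 1 as deposited (1.71%) or with its displaced rows missing (2.44%). The difference in chloroplast share of TPM was 0.183 percentage points, between 0.0782 and 0.255 with 1 library left out, and 0.595 with WT replicate 1 as deposited. It was not computed after TMM scaling, so its sign is given for TPM alone. Counts of rows without overlap and the WT spread were taken without WT replicate 1 as alternatives chosen after seeing the data. Some log2 fold changes turned in sign. With TMM scaling that of clpP was -0.056, of rpl2 -0.075, of ndhJ -0.16 and of ATCG00480 -0.10, which follows from its shift of -0.363 for every gene. With quantile normalization that of clpP was -0.045, of ndhJ -0.070 and of ATCG00470 0.83 (limma adjusted p = 0.00304). Taking WT replicate 1 in its deposited order, that of ndhK was 3.13, of cemA 1.78, of ATCG00330 1.60 and of ATCG00470 3.95, and with its displaced rows missing that of ndhK was 0.011. With 1 library left out that of ndhK lay between -0.14 and 0.0996, of cemA between -0.16 and 0.022 and of ATCG00470 between -0.26 and 0.068. The cause of the other turns was not tested, except that displaced values set the change where the column was used as deposited. Samples with the same replicate number did not deviate together in every pair (r = -0.0962, 0.171 and 0.155 across genes), so the numbers were not taken as pairs, and not every library correlated best with its own number. With a replicate block, fitted without mutant replicate 4, limma called 23 rows higher and 2 lower in TPM (57.9% and 2.43% of all tested genes), and with both scalings 0 rose and 1 fell. With the replicate block clpP was called higher in TPM (0.38, limma adjusted p = 0.0228), and the log2 fold change of ndhK was 0.054, of cemA 0.022 and of ATCG00470 0.017. The share by functional group, and sums with 1 copy of each repeated gene, were not run, because the sources used here do not name the rows. Depth is unknown, so what it limits could not be measured.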
